A study of Homo sapiens with 12 samples.

Results

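Serine is the amino acid that PTDSS1, phosphatidylserine synthase 1, exchanges for choline when it makes phosphatidylserine. The genes described here are 10 enzymes of serine, folate-bound one-carbon, asparagine and proline synthesis, namely *PHGDH*, *PSAT1*, *PSPH*, *SHMT1*, *SHMT2*, *MTHFD2*, *MTHFD1L*, *ALDH1L2*, *ASNS* and *PYCR1*. They were found by gene name in both deposited count tables and joined by Ensembl identifier, and are 10 of the 30358 identifiers that both tables list. RNA-seq of polyadenylated RNA was done on KYSE30, an esophageal squamous cell carcinoma line labelled wild type, and on libraries labelled U138MG, a line the study uses as a glioblastoma model. Cultures of each line received the PTDSS1 inhibitor PTDSS1i at 100 nM or DMSO, its vehicle, for 48 h, with 3 samples in each of the 4 groups and 12 in all. The comparison asks how the genes that make the substrate of PTDSS1, and its metabolic neighbours, respond when the enzyme is blocked.

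*PHGDH*, *PSAT1* and *PSPH* encode the successive enzymes that turn a glycolytic intermediate into serine. *SHMT1* in the cytosol and *SHMT2* in mitochondria split serine into glycine and a one-carbon unit carried on folate, and *MTHFD2*, *MTHFD1L* and *ALDH1L2* process that unit inside mitochondria. *ASNS* amidates aspartate to asparagine, and *PYCR1* performs the last step of proline synthesis. Many genes of this group are known targets of the transcription factor ATF4, which is translated when the integrated stress response is active.

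Levels are given as normalized CPM, read counts relative to the library size after scaling by edgeR's TMM factors. The calls higher and lower stand for an adjusted p under 0.05 by edgeR's quasi-likelihood fit, corrected by the Benjamini-Hochberg method over all genes tested in that line. Library totals lay between 18800932 and 26514658 counts, so that 3 counts correspond to 0.113 to 0.160 CPM. The labels do not say that the samples of a group came from separate cultures, and p-values measure the spread between these samples. Each line was its own batch per the labels and has its own table, so line, batch and table cannot be told apart. In the DMSO libraries labelled U138MG the squamous keratins *KRT5* and *KRT15* had 1470 and 4861 CPM, while *VIM* had 0.206 CPM and the glial genes *S100B* and *OLIG2* had 0 counts. In the same libraries *GFAP* had 2.36 CPM, the squamous keratins *KRT6A* and *KRT14* had 0.488 and 0.198 CPM, and the mesenchymal genes *FN1* and *CDH2* had 75.8 and 11.9 CPM. The lists are thus mixed, but the highest markers are epithelial, *S100B* and *OLIG2* have 0 counts and *GFAP* is low, though detected. This goes against the labelled origin, and U138MG names these libraries by their label only. The summed level of the 8 squamous epithelial markers was 6921 to 7717 CPM in the DMSO and 1773 to 1896 CPM in the PTDSS1i libraries labelled U138MG, against 921 to 988 and 1169 to 1201 CPM in KYSE30. In KYSE30 with DMSO that sum was mostly *CDH1* and *EPCAM*, at 514 and 280 CPM. *TP63*, *KRT15* and *DSG3* had 98.2, 41.3 and 17.4 CPM there. The keratins *KRT6A*, *KRT14* and *KRT5* had only 5.22, 0.355 and 0.0608 CPM, the last with at most 3 counts in a library. The summed level of the 8 glial and mesenchymal markers was 87.1 to 96.2 and 56.3 to 62.7 CPM in the libraries labelled U138MG. The 6 of them that the KYSE30 table lists summed to 85.4 to 133 and 66.3 to 72.8 CPM there, of which *FN1* alone had a mean of 98.3 CPM with DMSO. The part of either list in the results was not tested.

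Promoter windows of 250 bases before and 50 bases after each annotated start were available from RefSeq (GRCh38.p14) for 6 of the 10 genes, *PHGDH*, *PSAT1*, *SHMT1*, *MTHFD2*, *MTHFD1L* and *ASNS*, and were not for *PSPH*, *SHMT2*, *ALDH1L2* and *PYCR1*. They were searched on both strands for TGATGNAA, the core of the C/EBP-ATF response element that ATF4 binds together with a partner, whose reverse complement is TTNCATCA. The motif was found in windows of 2 of the 6 genes, *ASNS* and *MTHFD1L*, and in 4.46% of all 27305 genes with a window (3.62% of 35116 windows). The upstream bases of *ASNS* are shown because it changed most in both lines, and those of *PSAT1* and *PHGDH* because they hold no match while the former rose and the latter fell in both lines. For *MTHFD1L* the 30 bases around the match are shown, since several annotated starts surround it. Capitals mark the match, and each sequence runs 5′ to 3′ on the strand of its gene.
*ASNS*, chr7:97872409-97872658, minus strand: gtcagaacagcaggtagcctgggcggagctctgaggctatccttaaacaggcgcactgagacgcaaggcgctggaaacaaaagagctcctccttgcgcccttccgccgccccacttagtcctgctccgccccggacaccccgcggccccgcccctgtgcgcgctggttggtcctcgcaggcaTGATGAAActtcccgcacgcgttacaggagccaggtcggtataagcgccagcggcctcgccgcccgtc
*MTHFD1L*, chr6:150866346-150866375, plus strand: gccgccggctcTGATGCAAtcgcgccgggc
*PSAT1*, chr9:78296875-78297124, plus strand: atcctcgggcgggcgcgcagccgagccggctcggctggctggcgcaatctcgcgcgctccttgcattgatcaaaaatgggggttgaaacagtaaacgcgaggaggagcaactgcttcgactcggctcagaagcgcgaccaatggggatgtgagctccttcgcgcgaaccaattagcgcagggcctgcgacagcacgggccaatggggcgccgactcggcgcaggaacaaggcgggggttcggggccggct
*PHGDH*, chr1:119711684-119711933, plus strand: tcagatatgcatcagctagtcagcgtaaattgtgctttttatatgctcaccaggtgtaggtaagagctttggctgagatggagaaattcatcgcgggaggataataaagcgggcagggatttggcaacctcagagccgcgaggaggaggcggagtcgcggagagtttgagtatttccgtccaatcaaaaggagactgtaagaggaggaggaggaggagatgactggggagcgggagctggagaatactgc
In *ASNS* the match TGATGAAA begins 68 bases before the start, and in *MTHFD1L* the match TGATGCAA begins 129 bases before one start and 90 bases before another. For a further *MTHFD1L* start it lies at -24 on the same count, which is after that start. Both genes also have a window of yet another start that holds no match. A match in these windows is a description of the letters and shows neither binding nor its absence.

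The serine synthesis genes moved in different directions. Gene positions are those of GENCODE 29 on GRCh38. *PHGDH* (ENSG00000092621, chr1:119648411-119744226), whose enzyme oxidizes 3-phosphoglycerate and commits it to serine, had 199, 200.1 and 190.4 normalized CPM in the KYSE30 DMSO libraries and 148, 146 and 144 in the PTDSS1i libraries. It fell by 25.6% (log2 fold change -0.43 ± 0.05, where ± is the standard error of a fold change, adjusted p = 1.33e-07, edgeR). The U138MG libraries had 209, 200.2 and 209 normalized CPM with DMSO and 177, 179.8 and 182 with PTDSS1i. Here it fell by 12.7% (log2 fold change -0.20 ± 0.03, adjusted p = 1.31e-05, edgeR). The treatments did not overlap in either line.

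*PSAT1* (ENSG00000135069, chr9:78297143-78330093), the aminotransferase of the second step, rose in both lines. It had 62.6, 53.2 and 61.3 normalized CPM with DMSO and 94.4, 93.0 and 98 with PTDSS1i in KYSE30, where it rose 1.61-fold (log2 fold change 0.69 ± 0.06, adjusted p = 2.4e-09, edgeR). The levels in U138MG were 83.7, 81.0 and 99.9 with DMSO and 244, 254 and 259 with PTDSS1i, where it rose 2.86-fold (log2 fold change 1.51 ± 0.08, adjusted p = 3.32e-06, edgeR). Every PTDSS1i library of each line lay above every DMSO library of that line.

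*PSPH* (ENSG00000146733, chr7:56011051-56051604), the phosphatase that releases free serine, fell in KYSE30 and was not called in U138MG. In KYSE30 it had 151, 144 and 145 normalized CPM with DMSO and 78.8, 79.3 and 82.8 with PTDSS1i, and fell by 45.3% (log2 fold change -0.87 ± 0.05, adjusted p = 2.45e-12, edgeR). In U138MG it had 23.8, 21.3 and 19.4 with DMSO and 22.9, 22.8 and 24.4 with PTDSS1i, and the treatments overlapped. The log2 fold change there was 0.12 (95% interval -0.04 to 0.28, adjusted p = 0.160, edgeR), and it was -0.02 with no scaling beyond library size and with upper-quartile scaling. Beside *PSPH*, its near copy *PSPHP1* had 4394 counts in the 6 KYSE30 libraries, 30.1% of the 14608 counts of *PSPH*, and 0 in U138MG. How reads were divided between the pair is uncertain. *PSPHP1* had a log2 fold change of -0.19, and with both genes summed the KYSE30 value of *PSPH* was -0.71 (adjusted p = 4.80e-11, edgeR).

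**Figure D1:**
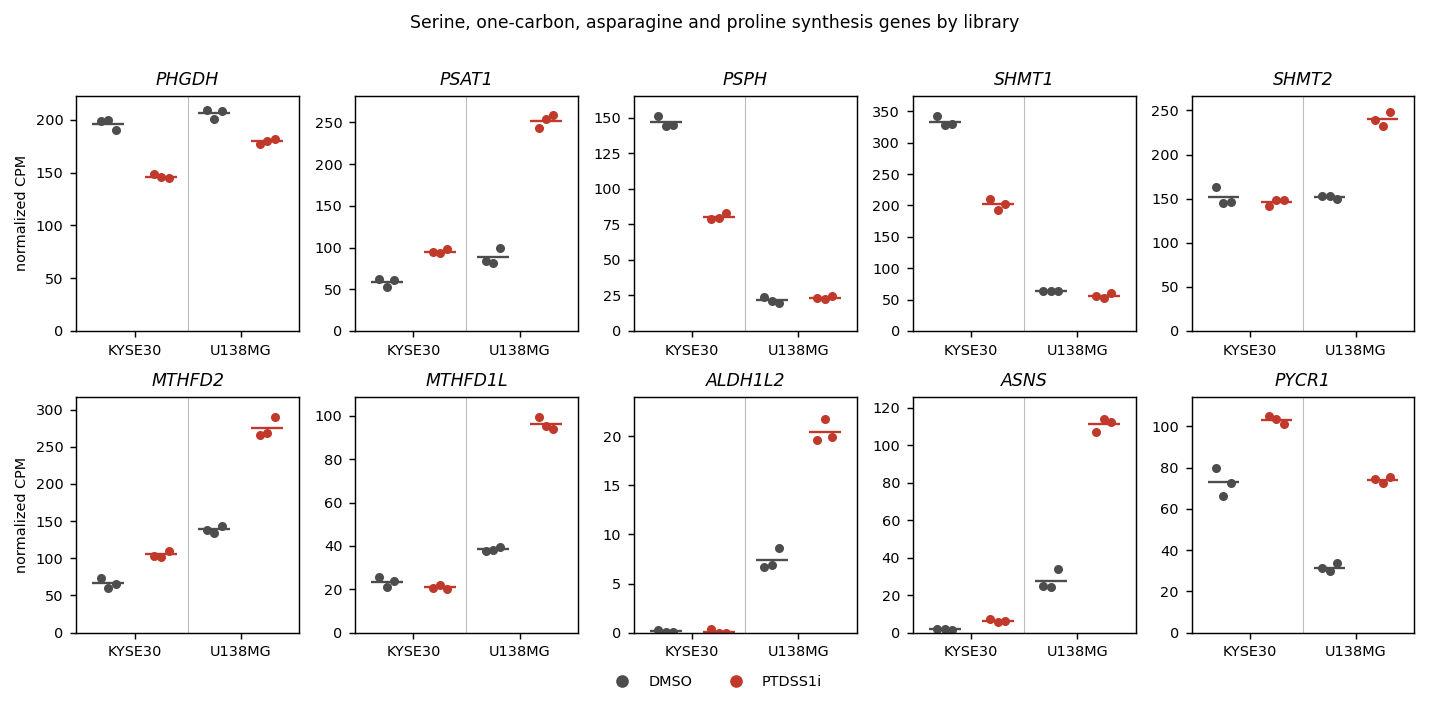
Normalized CPM (linear axis from 0, a scale of its own for each gene) of the 10 genes in the 12 libraries, each point a library and each bar the mean of 3, with DMSO in grey and PTDSS1i in red. *ASNS* and *PSAT1* were higher in every PTDSS1i library than in any DMSO library of the same line, while *PSPH* and *SHMT1* fell from 147 to 80.3 and from 333 to 202 normalized CPM in KYSE30.

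The paralogous enzymes that make glycine from serine differed. *SHMT1* (ENSG00000176974, chr17:18327860-18363563), the cytosolic form, had 343, 329 and 329 normalized CPM in the KYSE30 DMSO libraries and 211, 193 and 202 in the PTDSS1i libraries. In KYSE30 *SHMT1* fell by 39.5% (log2 fold change -0.72 ± 0.05, adjusted p = 6.27e-11, edgeR). The U138MG levels were 64.0, 63.8 and 63.5 with DMSO and 56.3, 52.4 and 60.6 with PTDSS1i, and *SHMT1* fell by 11.4% (log2 fold change -0.17 ± 0.05, adjusted p = 0.00343, edgeR). This last call rested on 1 library, since the log2 fold change was -0.11 and the adjusted p 0.0757 without PTDSS1i replicate 2. Exons of *SMCR8* on the opposite strand overlap 2.69% of the exon length of *SHMT1*. *SMCR8* had 16980 counts in KYSE30 and 10718 in U138MG, against 34457 and 8144 for *SHMT1*.

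*SHMT2* (ENSG00000182199, chr12:57229327-57234935), the mitochondrial form, had 163, 145 and 146 normalized CPM with DMSO and 141, 149 and 148 with PTDSS1i in KYSE30. The groups overlapped (log2 fold change -0.05, 95% interval -0.16 to 0.06, adjusted p = 0.442, edgeR). With library-size scaling alone it was -0.15 and was called (adjusted p = 0.0105, edgeR). In U138MG *SHMT2* started from a like level, 153, 154 and 149.5 with DMSO, and had 239, 233 and 249 with PTDSS1i. It rose there 1.58-fold (log2 fold change 0.66 ± 0.04, adjusted p = 9.11e-16, edgeR).

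Of the mitochondrial folate enzymes, *MTHFD2* rose in both lines, and *MTHFD1L* and *ALDH1L2* were called in U138MG and not in KYSE30. *MTHFD2* (ENSG00000065911, chr2:74198562-74217565) oxidizes the one-carbon unit released by *SHMT2*. In KYSE30 it had 73.6, 60.7 and 66.0 normalized CPM with DMSO and 103.7, 102 and 109.6 with PTDSS1i (1.58-fold, log2 fold change 0.66 ± 0.06, adjusted p = 9.9e-09, edgeR). U138MG libraries had 138.3, 134 and 144 with DMSO and 265, 269 and 289.9 with PTDSS1i (1.98-fold, log2 fold change 0.99 ± 0.04, adjusted p = 8.59e-19, edgeR), just under the 2-fold limit. Its exons overlap those of *SLC4A5* on the opposite strand over 27.2% of their length, and *SLC4A5* had 34 counts in KYSE30 and 229 in U138MG against 11147 and 28296 for *MTHFD2*.

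*MTHFD1L* (ENSG00000120254, chr6:150865549-151101887) makes the formate that leaves mitochondria. It had 25.5, 21.1 and 23.9 normalized CPM with DMSO and 20.6, 21.8 and 20.3 with PTDSS1i in KYSE30, with overlapping groups (log2 fold change -0.17, 95% interval -0.34 to -0.01, adjusted p = 0.0633, edgeR). That value is near the threshold, and was called at -0.28 with no scaling beyond library size, at -0.20 with upper-quartile scaling and at -0.25 without DMSO replicate 2. In U138MG it had 37.4, 38.1 and 39.7 with DMSO and 99.4, 95.1 and 93.8 with PTDSS1i. It rose there 2.5-fold (log2 fold change 1.32 ± 0.05, adjusted p = 4.38e-20, edgeR), and no DMSO library came near the lowest PTDSS1i library.

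*ALDH1L2* (ENSG00000136010, chr12:105019784-105084577) burns mitochondrial formyl groups to carbon dioxide and yields NADPH. In KYSE30 it was near the detection limit, with 6, 2 and 2 counts in the DMSO and 7, 0 and 0 counts in the PTDSS1i libraries, and was not tested. A change there was not detectable at this depth. In U138MG it had 6.69, 6.88 and 8.61 normalized CPM with DMSO and 19.7, 21.7 and 19.9 with PTDSS1i, and rose 2.76-fold (log2 fold change 1.46 ± 0.10, adjusted p = 1.84e-13, edgeR). Exons of *NOPCHAP1* on the opposite strand overlap 1.70% of the exon length of *ALDH1L2*. *NOPCHAP1* had 1580 counts in KYSE30 and 3491 in U138MG, against 17 and 1908 for *ALDH1L2*.

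*ASNS* (ENSG00000070669, chr7:97852118-97872542), asparagine synthetase, had the largest fold change of the genes tested among the 10 in each line. In KYSE30 it was scarce, with 1.95, 1.76 and 1.49 normalized CPM with DMSO and 7.08, 5.76 and 6.40 with PTDSS1i. It rose 3.71-fold (log2 fold change 1.89 ± 0.16, adjusted p = 1.51e-09, edgeR), the 243rd largest log2 fold change of the 16389 genes tested. The U138MG values were 25.1, 24.6 and 33.9 with DMSO and 107, 114 and 113 with PTDSS1i, and *ASNS* rose 3.99-fold (log2 fold change 2.00 ± 0.13, adjusted p = 5.26e-05, edgeR). DMSO replicate 3 stood above the other DMSO libraries for *ASNS*, as it did for *PSAT1* and *ALDH1L2*, and the log2 fold change of *ASNS* was 2.17 without it. An unnamed gene on the same strand shares 44.6% of the exon length of *ASNS*, and had 147 counts in KYSE30 and 168 in U138MG against 530 and 9573 for *ASNS*, so that the KYSE30 level of *ASNS* is the less certain.

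*PYCR1* (ENSG00000183010, chr17:81932384-81942412), which reduces pyrroline-5-carboxylate to proline in mitochondria, rose in both lines. In KYSE30 it had 79.9, 66.5 and 72.6 normalized CPM with DMSO and 104.9, 103.7 and 101 with PTDSS1i (1.41-fold, log2 fold change 0.50 ± 0.06, adjusted p = 3.02e-07, edgeR). U138MG libraries held 31.2, 29.8 and 33.6 with DMSO and 74.5, 72.6 and 75.2 with PTDSS1i (2.35-fold, log2 fold change 1.23 ± 0.05, adjusted p = 3.12e-18, edgeR). The treatments did not overlap in either line. Exons on the opposite strand cover 15.6% of its exon length and those of *MYADML2* 14.1%, and these genes had at most 229 counts, in U138MG, against 7238 for *PYCR1* there.

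In KYSE30, 4 of the 9 genes tested were higher (*ASNS*, *PSAT1*, *MTHFD2*, *PYCR1*), 3 were lower (*PSPH*, *SHMT1*, *PHGDH*) and 2 were not called. Of all genes tested in that line 30.1% were higher and 32.0% lower, so these shares were not far from those of the transcriptome. In either direction 7 of 9 were called, against 62.0% of all genes, and the treatments did not overlap for the same 7, against 66.3%. Past a 2-fold rise there was 1 of 9, *ASNS*, against 6.40% of all genes, and past a 2-fold fall there was none, against 7.04%. The median log2 fold change of the 9 genes was -0.05, beside -0.03 over all genes tested.

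In U138MG, 7 of the 10 genes were higher, against 33.9% of all genes tested, and 2 were lower, *PHGDH* and *SHMT1*, against 33.6%. The treatments did not overlap for these 9, against 71.4% of all genes, and 67.5% of all genes were called in either direction. *ASNS*, *PSAT1*, *ALDH1L2*, *MTHFD1L* and *PYCR1* passed a 2-fold rise, 5 of 10 against 8.19% of all genes, and none passed a 2-fold fall, against 11.6%. The median log2 fold change of the 10 genes was 1.11 beside -0.03 over all genes tested. With no scaling beyond library size the median of all genes shifted by -0.11 in KYSE30 and -0.15 in U138MG, and with upper-quartile scaling by -0.15 in U138MG. Under either of these scalings the median of the 10 genes in U138MG was 0.96, beside -0.17 over all genes.

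**Figure D2:**
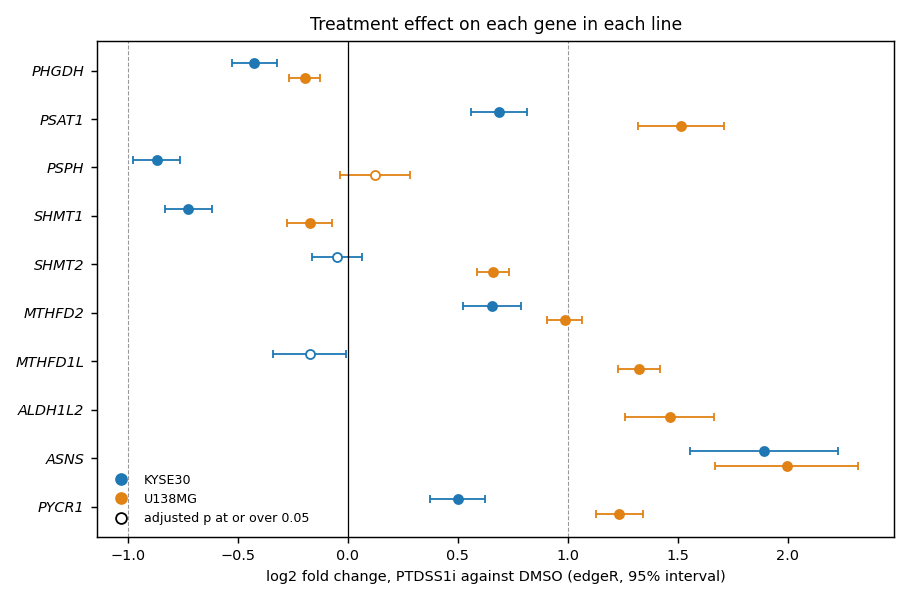
Log2 fold change of PTDSS1i against DMSO for each gene in KYSE30 (blue) and in the libraries labelled U138MG (orange), with 95% intervals from edgeR, where open points had an adjusted p of 0.05 or more and dashed lines mark 2-fold. *ASNS* lies at 1.89 and 2.00 with overlapping intervals, whereas *MTHFD1L* lies at -0.17 and 1.32, and *ALDH1L2* has no KYSE30 point because it was not tested there.

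The difference of the treatment effects was tested as the interaction of line and treatment over the genes listed in both tables, of which 18405 were tested. Of the 10 genes, 8 rose more or fell less in U138MG than in KYSE30, against 25.5% of all genes tested, and none went the other way, against 24.4%. The edgeR estimate was above 0 for all 10, and DESeq2 likewise called 0 of them in the other direction. *MTHFD1L* differed most among the 8, by 1.46 on the log2 scale (95% interval 1.27 to 1.64, adjusted p = 1.60e-14, edgeR). *PSPH* differed by 0.95, *PSAT1* by 0.79, *PYCR1* by 0.70 and *SHMT2* by 0.67, *SHMT1* by 0.51, *MTHFD2* by 0.29 and *PHGDH* by 0.19. The *PSPH* difference was not tested with *PSPHP1* summed, which had counts only in KYSE30.

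No difference between the lines was called for *ASNS* and *ALDH1L2*. For *ASNS* the difference was 0.06 on the log2 scale, with a 95% interval of -0.46 to 0.58 (adjusted p = 0.887, edgeR), which does not show that the lines responded alike. For *ALDH1L2* the estimate was 1.95 (adjusted p = 0.0988, edgeR) and rests on the few KYSE30 counts. Since the lines differ in batch and table as well as in labelled origin, the source of these differences cannot be told apart.

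The lines also began from different levels. In the DMSO libraries *SHMT1* had 333 ± 7.92 normalized CPM in KYSE30 and 63.7 ± 0.232 in U138MG (SD, n = 3), and *PSPH* had 147 ± 3.80 and 21.5 ± 2.17. The reverse held for *ASNS*, with 1.74 ± 0.235 in KYSE30 and 27.8 ± 5.21 in U138MG, and for *ALDH1L2*, with 0.160 ± 0.116 and 7.39 ± 1.06. *PHGDH* (196 ± 5.28 and 206 ± 4.98) and *SHMT2* (151 ± 9.92 and 152 ± 2.14) had similar levels. These levels were set by separate tables, and no test was made between them.

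Levels of different genes were compared per kb of exon, with the union of exons in GENCODE 29, which is not known to be the annotation of the counts. The union counts every annotated exon, whether these cells use it or not, so the order depends on this length. *PHGDH* has a union of 9217 bases and *PSAT1* of 2188, with 196 and 59.0 normalized CPM in KYSE30 DMSO libraries. Which transcripts were present was not tested. In KYSE30 DMSO libraries *PSPH* stood highest at 53.1 ± 1.38 normalized CPM per kb, followed by *SHMT1* (45.8 ± 1.09), *SHMT2* (31.3 ± 2.05), *PSAT1* (26.98 ± 2.31) and *PYCR1* (25.3 ± 2.33). The order went on with *PHGDH*, *MTHFD2*, *MTHFD1L*, *ASNS* and *ALDH1L2*, and the ranges of neighbours overlapped for 1 pair, *PSAT1* and *PYCR1*. With PTDSS1i, *PSAT1* stood first at 43.5 ± 1.18 and *PSPH* had 29.1 ± 0.784. The ranges of *SHMT2*, *PSPH* and *SHMT1* then overlapped from neighbour to neighbour.

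In U138MG *PSAT1* stood first with either treatment, at 40.3 ± 4.67 normalized CPM per kb with DMSO and 115 ± 3.51 with PTDSS1i. *SHMT2* (31.4 ± 0.442) and *MTHFD2* (28.5 ± 1.04) followed with DMSO and changed places with PTDSS1i, at 49.6 ± 1.67 and 56.4 ± 2.73. *ASNS* stood 9th of 10 with DMSO, at 6.25 ± 1.17, where its range overlapped that of *MTHFD1L* and the range of *MTHFD1L* that of *PSPH*, and 5th with PTDSS1i, at 25.0 ± 0.853, where its range overlapped that of *PYCR1*. *ALDH1L2* stood last in each group of both lines.

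**Figure D3:**
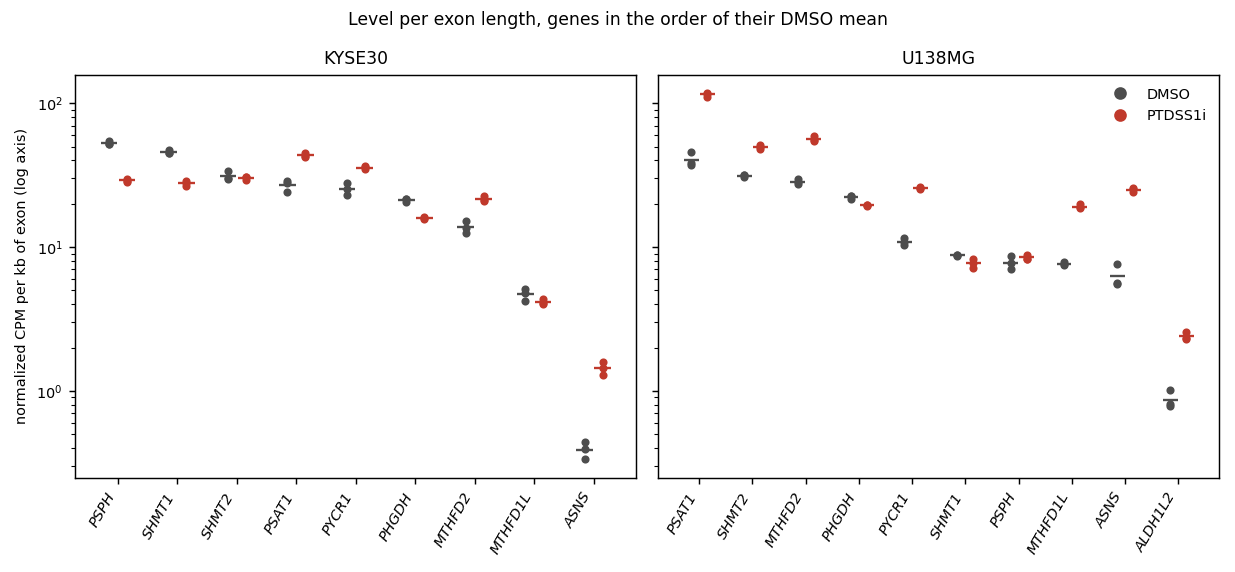
Level per exon length (normalized CPM per kb, log axis) of the genes in DMSO (grey) and PTDSS1i (red) libraries of each line, in the order of the DMSO mean, with points for libraries and bars for means. *PSAT1* reached 115 with PTDSS1i in U138MG, and *ALDH1L2* is not drawn for KYSE30, where 2 libraries had 0 counts.

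Around these genes, 49 further genes of 8 pathway lists were examined. The lists also hold the 10 genes themselves. Counts for a single list include those of the 10 that it holds, while the counts of the 49 leave them out. In KYSE30, 43 of them were tested, of which 8 were higher and 28 lower, with a median log2 fold change of -0.43. In U138MG, 46 were tested, of which 19 were higher and 16 lower, with a median of 0.02, and the balance turned to 18 higher and 21 lower with no scaling beyond library size and with upper-quartile scaling. The background of these counts and of the lists that follow is 30.1% higher and 32.0% lower over all genes in KYSE30, and 33.9% higher and 33.6% lower in U138MG.

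Purine synthesis as a pathway uses folate-bound one-carbon units and glycine, though not at every step. Its 6 enzymes were all lower in KYSE30 by the edgeR test, with a median log2 fold change of -0.96. Of these *ADSL* was scarce, with 4.93 ± 0.421 normalized CPM with DMSO and 3.57 ± 0.614 with PTDSS1i. Its DMSO level in U138MG was 82.2 ± 4.31, and the reason for this gap was not tested. *PFAS* fell from 62.8 ± 6.34 to 22.6 ± 0.419 normalized CPM (log2 fold change -1.48) and *PAICS* from 230.0 ± 20.7 to 84.2 ± 0.475 (log2 fold change -1.45). In U138MG 3 of the 6 were higher, *PPAT*, *GART* and *ATIC*, 1 was lower, *PFAS* at -0.42, and *PAICS* and *ADSL* had -0.06 and 0.02. The difference between the lines was 1.02 for *PFAS* (adjusted p = 2.21e-10, edgeR) and 1.36 for *PAICS* (adjusted p = 3.51e-15, edgeR).

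Of the 10 genes of cytosolic folate metabolism, 9 were tested in each line. *TYMS*, thymidylate synthase, fell from 272 ± 13.3 to 72.5 ± 2.92 normalized CPM in KYSE30 (log2 fold change -1.91) and from 312 ± 13.3 to 134 ± 9.30 in U138MG (-1.22). *MTHFD1*, the cytosolic counterpart of the mitochondrial enzymes, was chosen after its values were seen, and fell from 199 ± 8.94 to 84.0 ± 4.94 in KYSE30 (log2 fold change -1.24) and from 308 ± 5.67 to 224 ± 8.12 in U138MG (-0.46). In all 1 of the 9 was higher and 5 were lower in KYSE30, and 5 were higher and 4 lower in U138MG, against 30.1% and 32.0% of all genes in KYSE30 and 33.9% and 33.6% in U138MG. The list's median was -0.93 in KYSE30 and 0.37 in U138MG.

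The mitochondrial folate list has 6 genes, 3 of them among the 10. In KYSE30 1 of 5 tested was higher, *MTHFD2*, and 3 were lower, none of them among the 10. In U138MG 4 of 6 were higher by edgeR and none lower, with all 6 estimates above 0. Of these 4, 3 are genes of the 10 and were already counted above. Of the list's other genes, *MTHFD2L* had a log2 fold change of 0.21 in U138MG (adjusted p = 0.137, edgeR). *MTFMT* had 0.02 there (adjusted p = 0.879, edgeR), and neither was called. The carrier *SLC25A32*, which brings folate into mitochondria, fell from 5.07 ± 0.392 to 3.83 ± 0.499 normalized CPM in KYSE30 (adjusted p = 0.0217, edgeR). In U138MG *SLC25A32* rose from 20.8 ± 0.373 to 36.5 ± 2.69 (adjusted p = 2.04e-11, edgeR). *GCSH*, the lipoyl-bearing protein of the glycine cleavage system, likewise fell from 23.4 ± 0.657 to 12.0 ± 0.547 in KYSE30 and rose from 52.0 ± 0.878 to 68.4 ± 2.01 in U138MG. Of the serine and glycine use and breakdown list, which holds *GCSH*, 4 of 5 tested genes were lower in KYSE30, against 32.0% of all genes, and 3 of 7 were higher and 2 lower in U138MG, which is near the 33.9% and 33.6% of all genes.

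Transsulfuration carries the carbon of serine into cysteine. Its enzyme *CBS* rose from 14.8 ± 0.326 to 50.1 ± 0.866 normalized CPM in KYSE30 (log2 fold change 1.76) and by 0.61 on the log2 scale in U138MG, a difference of -1.18 (adjusted p = 1.58e-12, edgeR). The next enzyme *CTH* rose by 0.77 and 1.20. The methionine cycle genes *MAT2A*, *AHCY* and *MTR* of the same list fell in both lines, by 0.28 to 0.73 on the log2 scale. *MTRR* fell in KYSE30 (-0.58) and had 0.02 in U138MG, and *MAT2B* had -0.01 in KYSE30 and fell in U138MG (-0.22). In all 2 of 7 tested genes of the list were higher and 4 lower in KYSE30, and 2 of 8 were higher and 5 lower in U138MG.

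Of the asparagine, aspartate and glutamate list, 5 of 8 tested genes were higher and 2 lower in KYSE30, and 3 of 8 were higher and 2 lower in U138MG. Of the proline and ornithine list, 2 of 7 were higher and 4 lower in KYSE30, and 4 of 7 were higher and 2 lower in U138MG. The higher genes of the former list include *ASNS* and those of the latter *PYCR1*, in both lines, and both were already counted above. *GPT2*, mitochondrial alanine transaminase, rose from 30.0 ± 2.02 to 94.4 ± 3.89 normalized CPM in U138MG (log2 fold change 1.66), with 0.61 in KYSE30, where it rose too. *ASRGL1*, an asparaginase, fell in U138MG from 6.40 ± 0.759 to 2.39 ± 0.204 (log2 fold change -1.42) and in KYSE30 by 1.19 on the log2 scale, the opposite direction to *ASNS*. *PRODH*, which begins proline breakdown, fell from 40.4 ± 2.83 to 3.98 ± 0.196 in U138MG, a log2 fold change of -3.35 (adjusted p = 9.85e-23, edgeR), and had 0.04 in KYSE30, where its DMSO level was 3.23 to 4.59. In U138MG *ALDH18A1*, which acts before *PYCR1* in proline synthesis, rose by 0.39 on the log2 scale, whereas it fell by 0.34 in KYSE30.

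**Figure D4:**
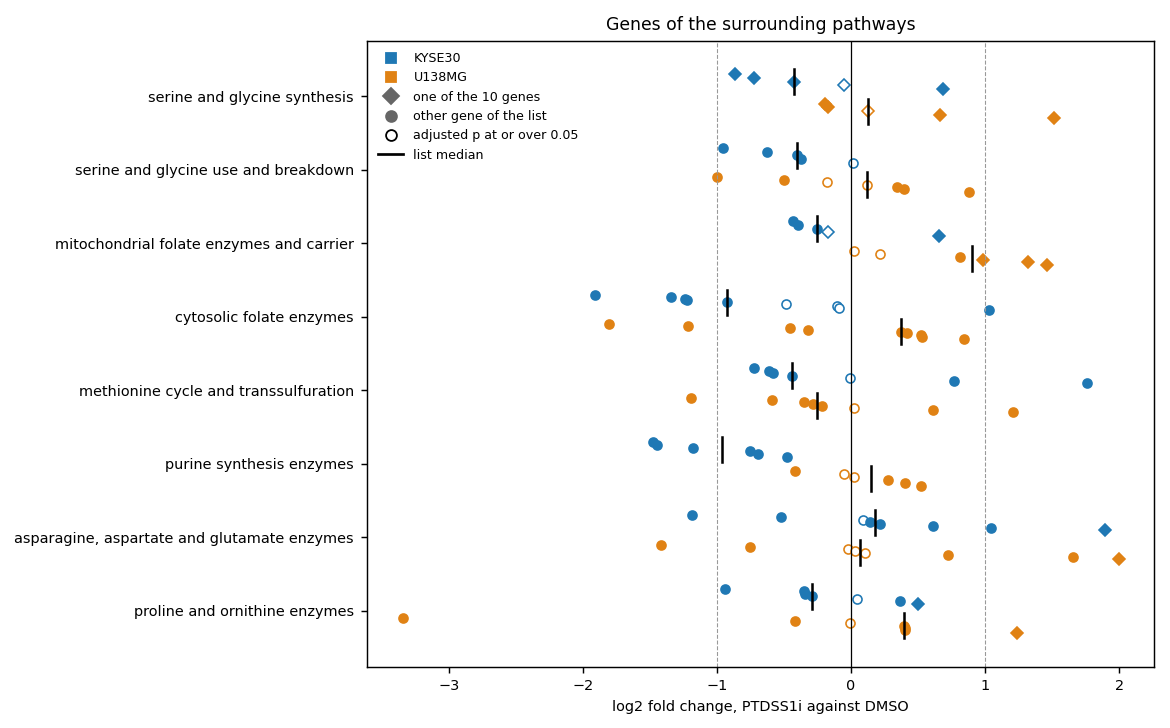
Log2 fold change of the tested genes of 8 pathway lists in KYSE30 (blue) and the libraries labelled U138MG (orange), where diamonds are the 10 genes, circles other genes, open symbols those with an adjusted p of 0.05 or more, black ticks list medians and dashed lines 2-fold. The purine enzymes have a median of -0.96 in KYSE30 and 0.15 in U138MG, and *PRODH* stands alone at -3.35.

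The target of the compound itself, *PTDSS1*, had 177, 152 and 165 normalized CPM with DMSO and 160.1, 154 and 164 with PTDSS1i in KYSE30 (log2 fold change -0.05, adjusted p = 0.494, edgeR). In U138MG it had 96.6, 90.5 and 91.6 with DMSO and 70.3, 68.9 and 74.4 with PTDSS1i, and fell by 23.2% (log2 fold change -0.38, adjusted p = 1.06e-08, edgeR). *PTDSS2*, which makes phosphatidylserine from phosphatidylethanolamine, was not called in either line (log2 fold changes 0.11 and -0.05, adjusted p = 0.128 and 0.677, edgeR). An inhibitor acts on the enzyme, so these levels do not check the labels.

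The genes whose pattern was most like that of the members' median over the 12 libraries were *MRPS10*, *TMEM147*, *STT3A*, *FAM210A* and *TPRA1*. The likeness is the distance between log2 levels centred on the mean of each line's DMSO libraries and the median of the 9 genes tested in both lines, among 10264 candidates. The distances ran from 0.204 to 0.246, while the members themselves lay between 0.573 for *SHMT2* and 3.74 for *ASNS*. Their own changes restate this choice and are not given.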

How the data were processed

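RNA-seq libraries of polyadenylated RNA were made with the TruSeq RNA v2 kit. The authors deposited raw read counts of each gene, whole and not normalized, in a table for each line. The submitters' processing notes name Trimmomatic, STAR, featureCounts and hg38, with no version, and the annotation and use of strand are not given in the sources used here. The labels give U138MG the KYSE30 growth medium, while the study's methods give DMEM. Counts were filtered by filterByExpr (minimum count 10, minimum total 15), scaled by TMM and tested by edgeR 4.0.16 robust quasi-likelihood with Benjamini-Hochberg adjustment in R 4.3.3, over 16389 genes in KYSE30, 17666 in U138MG and 18405 jointly. A threshold of 0.05 and a fold of 2 were used. The steps were tested on simulated data. Biological coefficients of variation were 0.0549 and 0.0452, and all replicate pairs differed beyond sampling noise (chi-square per degree of freedom 2.29 to 7.44). The floor of 3 counts covers counting error only. Comparing 3 with 3 samples allows no exact permutation p under 0.1. Exon overlaps used GENCODE 29, and figures used matplotlib 3.10.9. The members, lists and tests were chosen with earlier results of these data known. Named further genes are the 5 largest past 2-fold per line, examples from lists under 10 genes, and *PTDSS1* and *PTDSS2*, of which some are not reported here. *MTHFD1* was added after its values were seen. Alternatives were other scalings, DESeq2 1.42.0, other filters, a joint fit, a replicate block and each library left out. Summing *PSPH* with *PSPHP1* was added after seeing the data.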

Additional observations from a re-analysis of the deposited data

Results flagged for a closer look

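For 8 of the 10 genes the treatment effect differed between the lines by the edgeR interaction test. The differences of log2 fold changes, U138MG minus KYSE30, were 1.46 for *MTHFD1L* (adjusted p = 1.60e-14, edgeR), 0.95 for *PSPH* (adjusted p = 3.97e-11), 0.79 for *PSAT1* (adjusted p = 3.46e-06) and 0.70 for *PYCR1* (adjusted p = 1.98e-08). They were 0.67 for *SHMT2* (adjusted p = 4.50e-10, edgeR), 0.51 for *SHMT1* (adjusted p = 2.65e-07), 0.29 for *MTHFD2* (adjusted p = 0.00274) and 0.19 for *PHGDH* (adjusted p = 0.00764). The *PSPH* value leaves out *PSPHP1*, which had counts only in KYSE30. The same test called *PRODH* (-3.43), *CBS* (-1.18) and *PTDSS1* (-0.37), which rose less or fell more in U138MG. It also called *PAICS* (1.36), *PFAS* (1.02), *GPT2* (1.01) and *TYMS* (0.65), which rose more or fell less there. These were drawn from the largest changes past 2-fold, with *PTDSS1*. Of the other pathway genes named above, *PPAT*, *GCSH*, *GART*, *SLC25A32*, *ATIC*, *MTHFD1*, *ALDH18A1*, *MTRR*, *ADSL*, *MTR* and *AHCY* were called as rising more or falling less in U138MG. *MAT2A* and *MAT2B* were called the other way. Among all 18405 genes 25.5% were called as rising more or falling less in U138MG and 24.4% the other way. No outlier test was made, since groups of 3 samples are too small for one.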

How the results depend on the processing

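With no scaling beyond library size, 5 members were lower in KYSE30 in place of 3, and the members' median was -0.15 there and 0.96 in U138MG, where it was also 0.96 with upper-quartile scaling. In U138MG *PSPH* had a log2 fold change of -0.023 with no scaling and -0.022 with upper-quartile scaling. Over all genes, no scaling changed the split from 4927 higher and 5238 lower to 3932 and 6460 in KYSE30, and from 5989 and 5930 to 4533 and 7694 in U138MG (4545 and 7691 with upper-quartile scaling). For the difference between the lines, upper-quartile scaling shifted the median by -0.11, called 3887 genes as rising more and 5479 less in place of 4701 and 4487, and 7 in place of 8 members as rising more. With no filter beyond 1 count the KYSE30 median was -0.12 because *ALDH1L2* entered it.

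Leaving out each library in turn gave 4 higher and 3 to 4 lower members in KYSE30, and 7 to 8 higher and 1 to 2 lower in U138MG. The medians ran from -0.09 to 0.01 and from 1.08 to 1.15. *SHMT2* in KYSE30 ran from -0.0863 to 0.0117, the latter without DMSO replicate 1, *PSPH* in U138MG was called at 0.20 without DMSO replicate 1, and *SHMT1* in U138MG lost its call without PTDSS1i replicate 2. Members rising more in U138MG numbered 8 to 9. Past 2-fold there were 5 to 6 in U138MG, where *MTHFD2* ran from 0.95 to 1.02. With a replicate block, 9 members in place of 8 rose more in U138MG, and no other member count changed. The main tests did not pair the samples by number. Same-numbered deviations correlated only weakly, at 0.0204 to 0.0754 in KYSE30 and -0.00288 to 0.0484 in U138MG. In KYSE30 each sample correlated best with its own number, so a weak pairing there remains possible. The cause of each of these changes was not tested unless given. Depth limits *ALDH1L2* and *ASNS* in KYSE30.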
